A study of Mus musculus with 5 samples.

Results

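Plk5, Arr3, Coch, Abi3bp and 2900052N01Rik are 5 mouse genes whose RNA was lower in the tumor-bearing hemisphere of mice treated with ultrasound-mediated blood-brain barrier opening (UMBO) than in every vehicle mouse. They were chosen by their readout. Each was picked because both UMBO libraries lay under all 3 vehicle libraries, so the difference between the groups is a description here and carries no test. They are 5 of 2690 genes with that order among 23592 genes tested, and each count table lists 55573 genes. All 5 passed the filter on low counts. Plk5 stood at 33.0% of its vehicle mean with UMBO, Arr3 at 24.2%, Coch at 45.0%, Abi3bp at 38.2% and 2900052N01Rik at 46.7%.

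All mice were C57BL/6 females, 7 to 8 weeks old when GL261 cells were implanted into the right caudate-putamen. GL261 is a mouse glioma line that grows in immunocompetent C57BL/6 hosts, and the cells used carried a luciferase/mKate2 vector, so every group bore a tumor and was admitted on its bioluminescence signal. The vehicle group (3 libraries) received inVivoPure pH 6.5 Dilution Buffer, and the UMBO group (2 libraries) received pulsed ultrasound with intravenous SonoVue microbubbles. Sessions fell on days 21 and 24, mice were killed 24 hours after the last one, and bulk mRNA of the whole right hemisphere was sequenced, tumor and surrounding brain together. In such bulk tissue fewer cells of a type and less RNA per cell cannot be told apart.

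The libraries held 59736771 to 86164159 counted reads. The first principal component of log2 CPM (CPM, read counts scaled to a common library size by TMM) took 78.7% of the variance and set UMBO library 2 apart at 134, against 17 for vehicle library 2, -14.1 for UMBO library 1, and -68.4 and -68.2 for vehicle libraries 1 and 3. The fold changes of the 5 genes and the list medians that moved by over 1.5 times are therefore also given without single libraries. No gene passed an adjusted p of 0.05 in the quasi-likelihood test of edgeR (0% of 23592, smallest adjusted p = 0.497). At an unadjusted p of 0.05 that test called 1251 genes higher (5.3%) and 487 lower (2.06%), and the Wald test of DESeq2 called 40 genes after adjustment.

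The 5 genes come from unrelated families. Plk5 belongs to the polo-like kinases, which mostly drive centrosome and spindle events in dividing cells, but it is expressed mainly in brain and has been linked to neurite outgrowth. Arr3 encodes cone arrestin, which binds phosphorylated opsin to end the light response in cone photoreceptors and is also made in the pineal gland. Coch encodes cochlin, a secreted protein of the inner ear matrix with an LCCL domain and von Willebrand factor A domains, mutated in an inherited form of deafness. Abi3bp encodes an extracellular matrix protein first found as a partner of ABI3, an adaptor of the actin-regulating WAVE complex. 2900052N01Rik is annotated as a long intergenic non-coding RNA, and no function is given for it here.

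The genes lie on 5 chromosomes of GRCm38, all on the plus strand, and none shares exonic bases with another annotated gene on either strand. Plk5 (ENSMUSG00000035486) spans chr10:80356459-80365489, with 15 exons and 599 codons in its longest coding transcript. Arr3 (ENSMUSG00000060890) spans chrX:100605497-100618493, with 17 exons and 381 codons. Coch (ENSMUSG00000020953) spans chr12:51593341-51605771, with 12 exons and 552 codons. Abi3bp (ENSMUSG00000035258) spans chr16:56477878-56690135, with 60 exons and 1637 codons, the longest coding sequence of the 5. 2900052N01Rik (ENSMUSG00000099696) spans chr9:46913493-46927366, with 4 exons in its longest transcript and no coding transcript among 3.

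The sequence just upstream of each start is shown because the rule placed these genes together by their RNA alone. RefSeq promoters (GRCm38.p6) were found for 4 of the 5 genes, all except Abi3bp. The stretches below run 5′ to 3′ on the plus strand and end before the earliest annotated start. Capitals mark the GC box letters GGGCGG or their reverse complement in Plk5 (chr10:80356209-80356458) and Coch (chr12:51593091-51593282), the OTX and CRX core letters TAATC in Arr3 (chrX:100605247-100605479), and the CCAAT letters, on the minus strand, in 2900052N01Rik (chr9:46913353-46913492).
Plk5: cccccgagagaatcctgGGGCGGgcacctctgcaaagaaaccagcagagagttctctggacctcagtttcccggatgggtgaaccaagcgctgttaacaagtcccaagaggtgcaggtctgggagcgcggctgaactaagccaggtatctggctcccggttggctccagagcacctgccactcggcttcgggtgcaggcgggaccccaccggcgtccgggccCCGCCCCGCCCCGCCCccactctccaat
Arr3: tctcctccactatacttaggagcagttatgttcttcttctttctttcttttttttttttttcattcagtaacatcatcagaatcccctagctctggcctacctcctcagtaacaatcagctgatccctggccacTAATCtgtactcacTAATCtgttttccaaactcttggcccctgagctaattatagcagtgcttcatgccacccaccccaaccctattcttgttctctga
Coch: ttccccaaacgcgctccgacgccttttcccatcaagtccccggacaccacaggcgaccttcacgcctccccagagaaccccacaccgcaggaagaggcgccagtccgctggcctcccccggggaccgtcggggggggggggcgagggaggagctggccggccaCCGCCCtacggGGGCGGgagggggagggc
2900052N01Rik: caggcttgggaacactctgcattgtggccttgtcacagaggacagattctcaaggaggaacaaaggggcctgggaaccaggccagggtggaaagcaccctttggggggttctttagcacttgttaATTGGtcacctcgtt

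The windows of 250 bases before the RefSeq start differed in base composition as well as in motifs, searched on both strands. GC content was 65.6% for Plk5, 42.8% for Arr3, 74.8% for Coch and 55.2% for 2900052N01Rik, beside a median of 52.4% over 32851 promoters. Coch held 24 CpG sites and Plk5 held 16, while 2900052N01Rik held 2 and Arr3 held 0, beside a median of 6. GGGCGG matched 4 times in Plk5, of which 3 overlap in 1 run, and 3 times in Coch, of which 2 lie in the stretch shown, and was found in 32.7% of all promoters. TAATC, the core read by the photoreceptor and pineal factors OTX2 and CRX, matched 3 times in Arr3, 2 of them in the stretch shown, and was found in 19.8% of all promoters. At least 3 matches of TAATC occurred in 0.554% of all promoters. For GGGCGG, at least as many matches as in Plk5 occurred in 4.09% and at least as many as in Coch in 8.47%. The TAATC share is the smallest over the 6 motifs searched in 4 windows. CCAAT matched once in Plk5 and once in 2900052N01Rik and was found in 33.8% of promoters. CACGTG (6.02% of promoters), TGACG (17.8%) and TATAAA (12.4%) matched in none of the 4 windows. These matches are letters in a window, and no binding was measured.

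Plk5 was measured at 18.75, 20.77 and 24.78 CPM in vehicle libraries 1 to 3 and at 8.657 and 5.466 CPM in UMBO libraries 1 and 2. The lowest vehicle value was 2.17 times the highest UMBO value. Its group means were 21.43 ± 3.071 CPM (SD, n = 3) and 7.062 ± 2.256 CPM (SD, n = 2), a log2 fold change of -1.60 (SE 0.28). Plk5 was the gene of the 5 whose UMBO libraries differed most, with library 2 at 63.1% of library 1.

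Arr3 was the rarest of the 5, at 107, 94 and 124 reads with vehicle and 33 and 20 reads with UMBO. These are 1.431, 1.394 and 1.465 CPM against 0.3861 and 0.3054 CPM. The exact Poisson 95% intervals, which cover counting error only, reached down to 1.13 CPM with vehicle and up to 0.542 CPM with UMBO. As Arr3 was chosen on these counts, the distance between the groups is a description. The means were 1.43 ± 0.0351 CPM (SD, n = 3) and 0.3457 ± 0.05706 CPM (SD, n = 2), with a log2 fold change of -2.04 (SE 0.339). The vehicle SD of Arr3 on the log2 scale, 0.035, was smaller than that of all but 1.71% of tested genes. Its gap, the lowest vehicle minus the highest UMBO log2 CPM, was 1.78, the widest among the 2690 genes.

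Coch was measured at 44.28, 39.31 and 35.1 CPM with vehicle and at 19.61 and 16.0 CPM with UMBO. The means were 39.56 ± 4.592 CPM (SD, n = 3) and 17.8 ± 2.55 CPM (SD, n = 2), with a log2 fold change of -1.15 (SE 0.195). The groups did not overlap, and the gap of 0.84 was the smallest of the 5 genes.

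Abi3bp was measured at 17.67, 13.51 and 19.16 CPM with vehicle and at 7.136 and 5.68 CPM with UMBO. The means were 16.78 ± 2.925 CPM (SD, n = 3) and 6.408 ± 1.03 CPM (SD, n = 2), with a log2 fold change of -1.39 (SE 0.252). Vehicle library 2 was the low one of its group, which gave Abi3bp the largest relative vehicle spread of the 5 (17.4% of the mean), and it still lay 1.89 times above the higher UMBO library.

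The non-coding RNA 2900052N01Rik was measured at 39.34, 40.74 and 44.06 CPM with vehicle and at 20.41 and 18.22 CPM with UMBO. The means were 41.38 ± 2.422 CPM (SD, n = 3) and 19.32 ± 1.555 CPM (SD, n = 2), with a log2 fold change of -1.10 (SE 0.165), the smallest of the 5. Its UMBO libraries were also the closest of the 5, with library 2 at 89.3% of library 1.

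**Figure D1:**
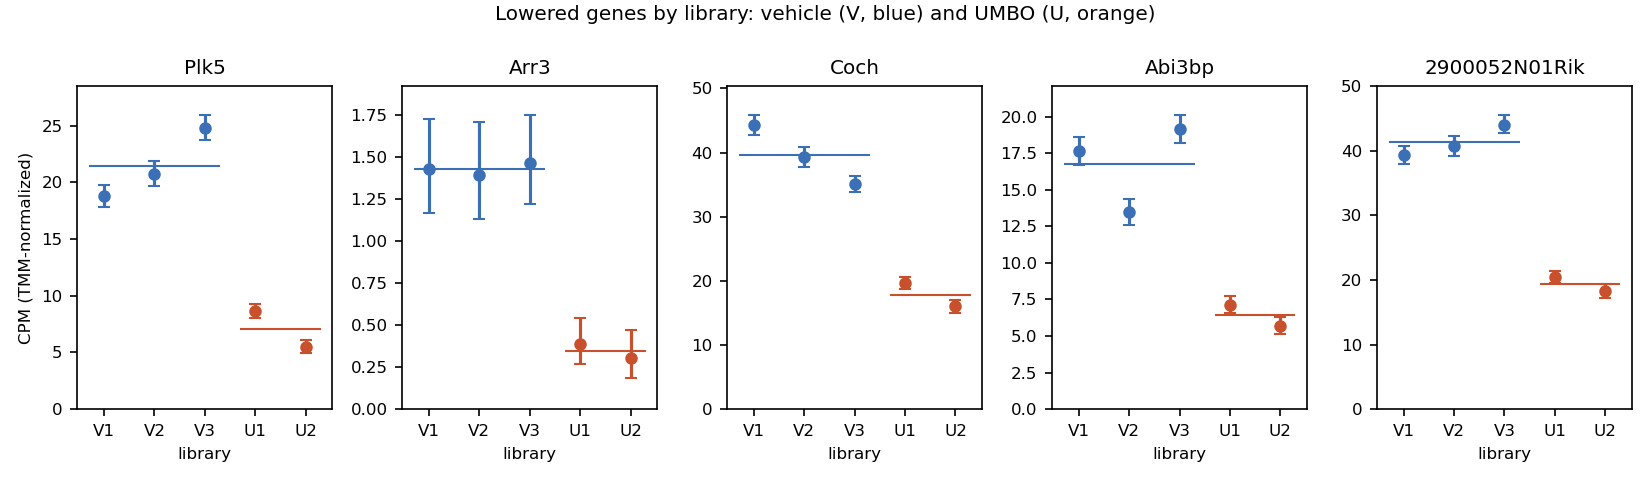
Each panel plots the CPM of one gene (y axis from 0, TMM-normalized) in vehicle libraries V1 to V3 and UMBO libraries U1 and U2, with bars for exact Poisson 95% intervals of counting error and lines for group means. In each panel both UMBO points lie under every vehicle point, and U2 lies under U1.

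The order that chose the genes was common in these data, at 11.4% of tested genes under and 11.5% over, so the order alone does not set the 5 apart. By size they lay toward its far end, but size comes from the same values by which they were chosen, so this is a description. The 2690 genes had a median log2 fold change of -0.59 and a median gap of 0.11, whereas the 5 genes ranged from -2.04 to -1.10 and from 0.84 to 1.78. A gap at least as wide as that of Coch was reached by 56 genes, and a log2 fold change of -1 or lower by 489 genes (2.07% of those tested). By gap the ranks among the 2690 were 1 for Arr3, 17 for Plk5, 40 for 2900052N01Rik, 44 for Abi3bp and 56 for Coch. By log2 fold change they were 35, 106, 368, 168 and 325 in the same order of genes. The shares of 11.4% under and 11.5% over are the background for every count of genes under or over given below.

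The edge of the rule lay at a gap of 0. Just inside it, Phf12 was at 57.99 CPM in its lowest vehicle library and 57.98 CPM in its highest UMBO library, and Fnbp1 had a gap of 0.0003. Just outside it lay Gm43032 and Pdp2, each with a gap of -0.0001. The plot of gap against fold change shows how many of the genes lie near that edge.

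**Figure D2:**
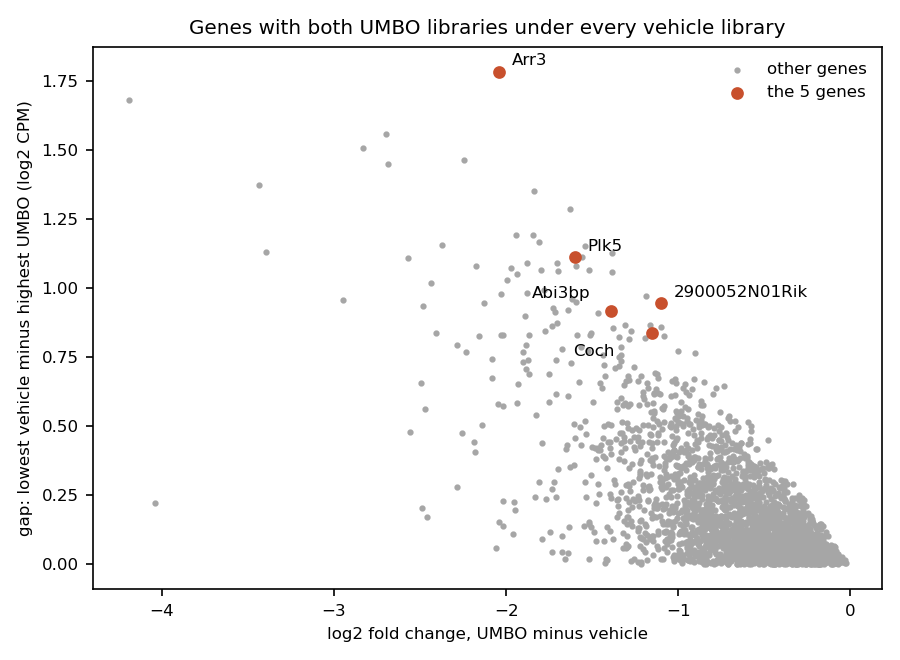
Each point is one of the 2690 genes with both UMBO libraries under every vehicle library, plotted by log2 fold change (x axis, UMBO minus vehicle) and gap in log2 CPM (y axis). The 5 genes (orange) have gaps from 0.84 to 1.78, while the median gap is 0.11.

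The vehicle spread was under the median of all tested genes in 4 of the 5 genes, though the vehicle values were part of how all 5 were chosen. Their vehicle SD on the log2 scale was 0.203 for Plk5, 0.035 for Arr3, 0.167 for Coch, 0.263 for Abi3bp and 0.084 for 2900052N01Rik, beside a median of 0.259 over all tested genes. UMBO library 2 was lower than UMBO library 1 in all 5, by log2 differences of -0.16 (2900052N01Rik) to -0.66 (Plk5), and the median absolute difference over all tested genes was 0.605. Without UMBO library 2 the log2 fold changes were between -1.88 (Arr3) and -1.01 (Coch), and without UMBO library 1 they were between -2.25 and -1.21. That each fold change stays negative without any 1 library follows from how the genes were chosen.

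Compared per kilobase of exon, Coch and 2900052N01Rik were the most abundant of the 5. With vehicle, Coch was at 14.8, 13.1 and 11.7 CPM per kb and 2900052N01Rik at 12.2, 12.6 and 13.6 CPM per kb, ranges that overlap. Plk5 followed at a mean of 8.0 CPM per kb, Abi3bp at 2.26 and Arr3 at 0.607. With UMBO the means were 5.97 for 2900052N01Rik, 5.94 for Coch, 2.64 for Plk5, 0.864 for Abi3bp and 0.147 for Arr3. Arr3 sat at percentile 31.5 of tested genes in the vehicle libraries and Coch at percentile 83.6.

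Within the polo-like kinases, none of the 4 relatives of Plk5 had both UMBO libraries under or over the vehicle libraries. Plk5 made up 11.8%, 16.6% and 21.7% of the family's CPM per kb with vehicle and 7.11% and 5.01% with UMBO. Plk2, a neuronal activity-regulated kinase that acts at synapses, was the largest member, at 62.5% to 74.8% with vehicle and 73.2% and 49.6% with UMBO. Its log2 fold change was -0.33 (SE 0.329). Plk1, the main mitotic polo kinase, was at 3.397, 6.676 and 2.646 CPM with vehicle and 6.388 and 21.53 CPM with UMBO. Its high mean came from UMBO library 2, and its log2 fold change of 1.72 (SE 0.611) had an unadjusted p of 0.0306 and an adjusted p of 0.497 (edgeR). Plk4, which starts centriole duplication, had a log2 fold change of 0.46 (SE 0.276), and Plk3, a stress-response kinase, had one of 0.27 (SE 0.222). The median of the 4 relatives was 0.36, or 0.05 without UMBO library 2 and 0.59 without UMBO library 1.

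Among the arrestins, Arr3 and Sag, the rod arrestin, changed places per kb of exon but not in CPM. In CPM, Sag (1.859 to 2.718 over the 5 libraries) lay above Arr3 (0.3054 to 1.465) in every library. Per kb, Arr3 lay above Sag in every vehicle library (0.592 to 0.622 against 0.209 to 0.275 CPM per kb) and below it in both UMBO libraries (0.164 and 0.13 against 0.23 and 0.305). The log2 fold change of Sag was 0.21, from 2.063 ± 0.3314 CPM (SD, n = 3) to 2.383 ± 0.4741 CPM (SD, n = 2). Arr3 was a small part of the arrestin RNA, at 1.26% to 1.35% with vehicle and 0.355% and 0.27% with UMBO, since the widely expressed beta-arrestins Arrb1 and Arrb2 made up most of it. Their log2 fold changes were -0.51 and 0.59. Over the 8 tested arrestin relatives the median log2 fold change was 0.28, with none under and 2 over the vehicle libraries, and it was 0.08 without UMBO library 2 and 0.44 without UMBO library 1. The relatives with the smallest unadjusted p were Arrb2 (unadjusted p = 0.0564) and Txnip, an arrestin-fold regulator of glucose uptake, at a log2 fold change of 0.74 (unadjusted p = 0.0614), both with an adjusted p of 0.497 (edgeR).

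Vitrin (Vit), the close relative of cochlin with the same kinds of domain, had a log2 fold change of 0.23. Coch made up 94.5%, 91.9% and 87.5% of the pair's CPM per kb with vehicle and 77.2% and 84.8% with UMBO. Of 10 tested genes with an LCCL or matrix von Willebrand factor A domain, 1 lay under and 3 over the vehicle libraries, with a median log2 fold change of 0.17, which was 0.08 without UMBO library 1 and 0.29 without vehicle library 3. Vwa1, a basement membrane protein, was at 0.78 (unadjusted p = 0.0126), and Matn1, a cartilage matrilin, was at 1.44 (unadjusted p = 0.0132), both with an adjusted p of 0.497 (edgeR). Matn1 stood at only 0.3315 ± 0.1094 CPM (SD, n = 3) with vehicle.

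**Figure D3:**
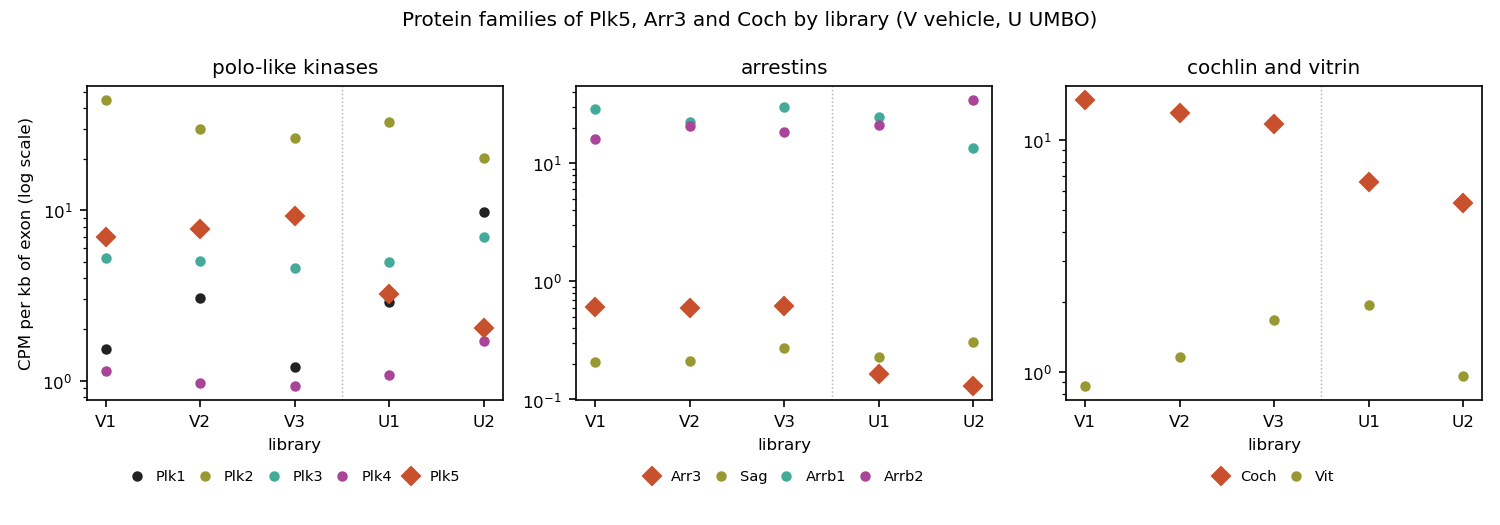
CPM per kb of exon (log scale) in each library for the polo-like kinases, the arrestins, and cochlin with vitrin, with diamonds for Plk5, Arr3 and Coch and circles for relatives. Arr3 lies above Sag in V1 to V3 and below it in U1 and U2, and Coch lies above Vit in all 5 libraries.

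Photoreceptor and pineal genes were split in direction. Of 34 listed, 27 were tested, 12 were higher and 15 lower, 4 lay under and 2 over the vehicle libraries, and their median log2 fold change was -0.20. Pde6c, the cone phosphodiesterase, was lower at a log2 fold change of -2.02 (SE 0.659, unadjusted p = 0.0223, adjusted p = 0.497), but stood at only 0.2198 ± 0.1048 CPM (SD, n = 3) with vehicle. Gngt2, the cone transducin gamma subunit, was higher at 1.65 (unadjusted p = 0.0403, adjusted p = 0.497, edgeR), with UMBO library 2 at 18.06 CPM. Crx, the factor that defines photoreceptor and pineal cells, had 0, 1 and 22 reads with vehicle and 2 and 0 with UMBO, and Guca1a had 0 reads in all 5. The list median was -0.32, -0.10 and 0.21 without vehicle libraries 1, 2 and 3, and -0.38 and -0.07 without UMBO libraries 1 and 2.

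Most other inner ear matrix genes had a positive log2 fold change. Of 12 listed, 8 were tested, 6 were higher, 3 lay over the vehicle libraries and 0 under, with a median log2 fold change of 0.66, which was 0.33 without UMBO library 1. Col11a2, a fibrillar collagen of cartilage and tectorial membrane, was at 0.71 (SE 0.195, unadjusted p = 0.0106) and Tecta, alpha-tectorin, at 1.30 (SE 0.435, unadjusted p = 0.0241), both with an adjusted p of 0.497 (edgeR). Tecta stood at only 0.2968 ± 0.1051 CPM (SD, n = 3) with vehicle, and several other tested genes of the list also had vehicle means under 1 CPM.

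Abi3 and the WAVE complex genes were split in direction. Abi3 itself was at 5.189, 10.44 and 6.237 CPM with vehicle and 11.51 and 23.62 CPM with UMBO, a log2 fold change of 1.27 (SE 0.425, unadjusted p = 0.0245). Nckap1l, the blood-cell form of a WAVE complex subunit, was at 0.81 (unadjusted p = 0.0204) and Wasf2 at 0.44 (unadjusted p = 0.0489), all 3 with an adjusted p of 0.497 (edgeR). These 3 were the genes of the list that lay over every vehicle library, against 0 under. Among the remaining subunits, Cyfip2 was at -0.90, Abi2 at -0.61, Nckap1 at -0.57, Wasf3 at -0.42, Wasf1 at -0.34 and Abi1 at -0.26, while Brk1 was at 0.24 and Cyfip1 at 0.18. The median of the 11 genes, -0.26, was 0.11 without UMBO library 2, -0.80 without UMBO library 1 and -0.14 without vehicle library 1.

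The wider matrix and border tissues were split. Of 30 brain matrix genes, 1 lay under and 6 over the vehicle libraries (median log2 fold change 0.02), with Ecm1 at 1.26 (unadjusted p = 0.013) and Tnc, the glycoprotein tenascin-C, at 1.01 (unadjusted p = 0.0172). Of 22 meningeal fibroblast genes, 2 lay under and 11 over (median 0.42), where 11.4% of all tested genes lay under and 11.5% over. Decorin (Dcn) was at 13.93, 20.61 and 23.33 CPM with vehicle and 53.76 and 47.3 CPM with UMBO (log2 fold change 1.39, unadjusted p = 0.00142), and Col1a1 was at 1.16 (unadjusted p = 0.00164). The adjusted p of all 4 was 0.497 (edgeR). The fibroblast list also held Igf2 at -1.70 and Ranbp3l at -0.60, its 2 genes under the vehicle libraries, and Col6a2 at 0.03. These 3 were chosen after their values were seen. The brain matrix median was -0.07, -0.01 and 0.12 without vehicle libraries 1, 2 and 3, and -0.27 and 0.14 without UMBO libraries 1 and 2.

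Lists of brain regions and cell types, chosen because the dissected hemisphere could hold different amounts of each, were set beside the 5 genes. Their part in the low values was not tested. The median of striatal projection neuron genes, from 0.24, 0.17 and -0.35 on the log2 scale around the vehicle mean to -0.71 and -0.51 with UMBO, and that of pan-neuronal genes, from 0.15, -0.08 and -0.11 to -0.13 and -0.62, were the 2 of 24 list medians that lay under every vehicle library in both UMBO libraries. Each of the 5 genes lay lower than these medians in both UMBO libraries, from -1.01 to -1.82 in library 1 and from -1.18 to -2.13 in library 2. Of 15 tested striatal genes, 9 lay under the vehicle libraries, beside 11.4% of all tested genes, and 6 were lower at an unadjusted p of 0.05, where 2.06% of all tested genes were. Pde10a, the striatal phosphodiesterase, was at -1.44 (unadjusted p = 0.00951, adjusted p = 0.497, edgeR). By log2 fold change 12 of the 15 striatal genes were lower and 3 higher, the latter Penk (0.13), Pdyn (0.05) and Tac1 (0.01). In UMBO library 2 these 3 lay above every vehicle library, and they were named after their values were seen. The summed level of the 16 pan-neuronal genes was 15400, 11300 and 11800 CPM with vehicle and 11200 and 6040 CPM with UMBO, and 7 of them lay under, with a median of -0.35, or -0.14 without UMBO library 2 and -0.65 without UMBO library 1, and with Rbfox3 at -0.44 (unadjusted p = 0.109) and Slc32a1 at -0.31 (unadjusted p = 0.119).

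In the cortical, dentate, hippocampal and thalamic lists UMBO library 2 was the lower of the pair. Their counts under and over the vehicle libraries stand beside 11.4% and 11.5% of all tested genes. Of 16 cortical excitatory neuron genes, 8 lay under and 0 over (median log2 fold change -0.66, or -0.33 without UMBO library 2 and -1.13 without UMBO library 1), with Foxp2 at -0.65 (unadjusted p = 0.0101) and Lamp5 at -1.17 (unadjusted p = 0.0131). The dentate granule cell median was -0.33, with 3 of 12 under and 1 over, and was 0.24 without UMBO library 2, -1.44 without UMBO library 1, and -0.16 and -0.53 without vehicle libraries 1 and 2. The hippocampal pyramidal median was 0.40, with 0 of 12 under and 2 over, and was 0.70 without UMBO library 2 and -1.03 without UMBO library 1. Il16 (0.85, unadjusted p = 0.021) and Pdzd2 (-0.88, unadjusted p = 0.0565) led the dentate list, and Wfs1 in the hippocampal one was at 0.60 (unadjusted p = 0.0729). Thalamic genes had a median of -0.35, with 3 of 17 under and 1 over, with a median of -0.14 without UMBO library 2, -0.54 without UMBO library 1 and -0.22 without vehicle library 3, led by Patj (-0.66, unadjusted p = 0.0506) and Rora (-0.61, unadjusted p = 0.0669). None of these genes had an adjusted p under 0.497 (edgeR). In UMBO library 1 the medians of the dentate and hippocampal lists were 0.28 and 0.76.

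Most genes were lower in the choroid plexus (13 of 16), astrocyte (8 of 12) and oligodendrocyte (10 of 12) lists, while 9 of 15 ependymal genes were higher. Among all tested genes 49.1% were lower, 11.4% lay under the vehicle libraries and 11.5% over. Choroid plexus genes had a median of -0.54 with 3 of 16 under and 1 over, at -0.10 in UMBO library 1 and -1.11 in UMBO library 2, led by Steap1 (1.01, unadjusted p = 0.0774) and Sostdc1 (-0.74, unadjusted p = 0.0785). The median was -0.14 without UMBO library 2, -1.19 without UMBO library 1 and -0.27 without vehicle library 3. Ependymal genes (0.09, 0 of 15 under and 3 over) were led by Hydin (-1.18, unadjusted p = 0.106) and Cfap126 (0.41, unadjusted p = 0.181). Astrocyte genes (-0.11, 0 of 12 under and 1 over) were led by Aldh1l1 (0.36, unadjusted p = 0.0783) and Gli2 (-0.48, unadjusted p = 0.239). Oligodendrocyte genes (-0.07, 3 of 12 under and 2 over) were led by Aspa (-0.47, unadjusted p = 0.0356) and Ermn (-0.44, unadjusted p = 0.0951). Without UMBO library 1 the ependymal, astrocyte and oligodendrocyte medians were 0.01, -0.64 and -0.23, and without UMBO library 2 they were 0.17, 0.16 and 0.00. Omitting vehicle library 1, 2 or 3 gave ependymal medians of -0.07, 0.14 and 0.25, omitting vehicle library 1 or 3 gave astrocyte medians of -0.22 and 0.02, and omitting vehicle library 2 gave an oligodendrocyte median of -0.04. The adjusted p values of these 8 genes lay between 0.497 and 0.528 (edgeR).

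Proliferation, microglia and endothelial genes were mostly higher in the UMBO libraries. All 16 proliferation genes were higher at an unadjusted p of 0.05, where 5.3% of all tested genes were, with a summed level of 70.1, 154 and 53.6 CPM with vehicle and 166 and 662 CPM with UMBO, and Kif11 (1.37, unadjusted p = 0.00784) and Cenpf (2.12, unadjusted p = 0.00804) led them. Their median log2 fold change of 2.14 was 0.86 without UMBO library 2. Of 15 microglia and macrophage genes, 9 were higher at that p and 7 lay over the vehicle libraries (median 1.54, or 0.64 without UMBO library 2), led by Cx3cr1 (0.73, unadjusted p = 0.00926) and Itgam (1.57, unadjusted p = 0.0125). Among all tested genes 11.5% lay over every vehicle library. Of 12 endothelial genes, 8 lay over (median 0.52), led by Cldn5 (1.15, unadjusted p = 0.0106) and Emcn (0.89, unadjusted p = 0.0179). The adjusted p of these 6 genes was 0.497 (edgeR). The part of proliferating, immune or vascular cells in the low values of the 5 genes was not tested.

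**Figure D4:**
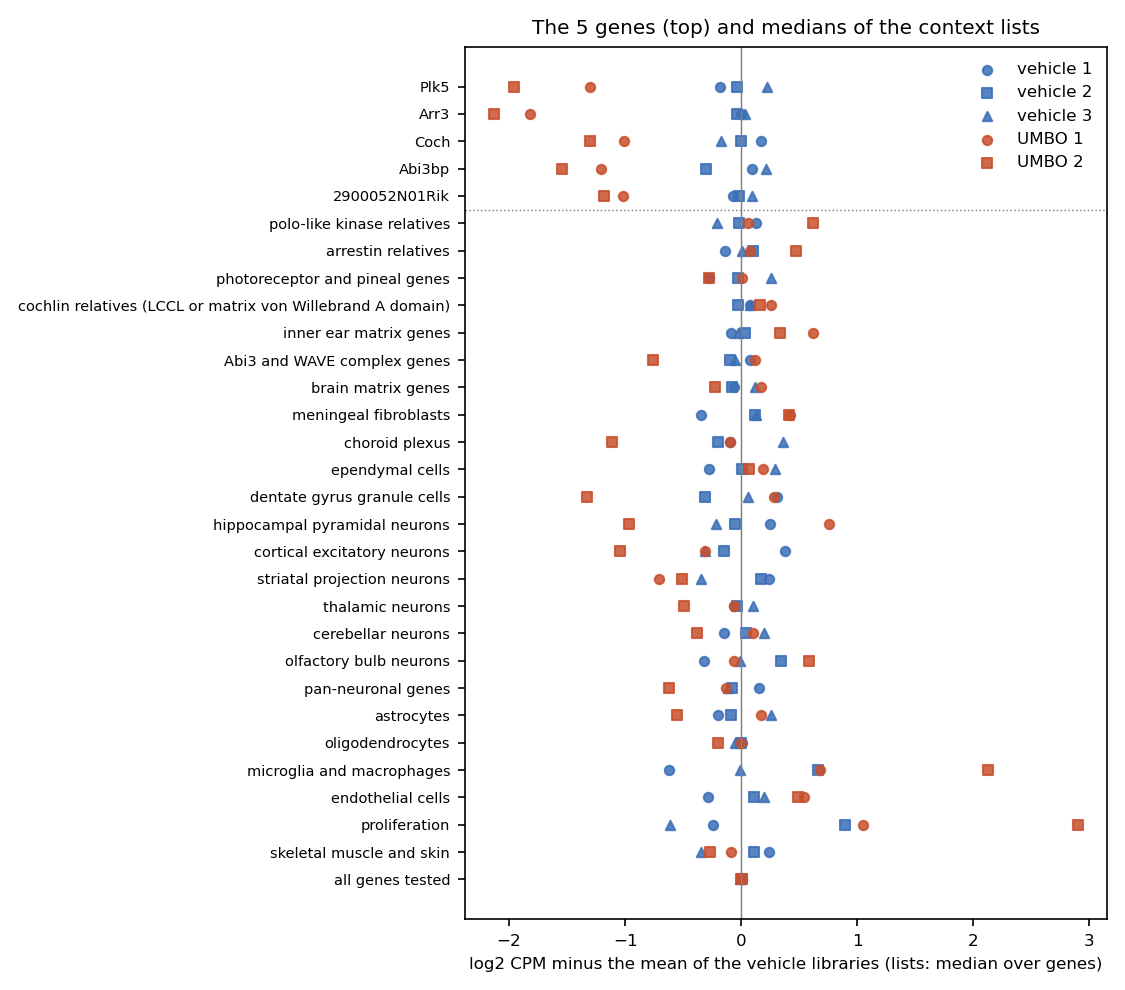
Log2 CPM minus the mean of the 3 vehicle libraries (x axis) for each of the 5 genes and for the median gene of each of 24 lists and of all tested genes, 1 symbol per library. The UMBO symbols of the 5 genes lie from -1.01 to -2.13, and those of the striatal and pan-neuronal medians from -0.13 to -0.71.

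The nearest tested genes on the chromosome had log2 fold changes nearer to 0 than the 5 genes. As the 5 genes were chosen by their low values and the neighbours were not, that contrast is a description. Of 10 neighbours, 6 had a negative log2 fold change, beside 49.1% of all tested genes. Under the vehicle libraries lay 3, beside 11.4% of all tested genes, and the log2 fold changes ranged from -0.56 to 0.92. Tfg, a secretory pathway protein whose end lies 0.197 kb from Abi3bp, was at 54.29 ± 2.874 CPM (SD, n = 3) and 50.17 ± 1.438 CPM (SD, n = 2), a log2 fold change of -0.11, and Impg2, on the far side, was at -0.44. Strn3, 3.86 kb from Coch, was at -0.29 and Scfd1 at -0.05. Pdzd11, 4.39 kb from Arr3, was at 0.25 and Dgat2l6 at -0.55. Adamtsl5 and Mex3d, beside Plk5, were at 0.15 and 0.10, and the lincRNAs Gm31614 and Gm31816, beside 2900052N01Rik, were at -0.56 and 0.92.

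The genes whose 5 values were most like each of these were sought by the root mean square (RMS) difference of log2 CPM after centring over the 5 libraries, which only describes 5 libraries. For Plk5 they were Otof (0.17), Abi3bp (0.233) and Col24a1 (0.266). For Arr3 they were CT025659.1 (0.155), Gm12930 (0.224) and Plk5 (0.235). For Coch they included Gm44210 (0.109) and Cftr (0.128). For Abi3bp they were Gm45470 (0.16), 5930409G06Rik (0.178) and Unc13c (0.193), and for 2900052N01Rik they were Pld5 (0.116), Cftr (0.119) and Col14a1 (0.126). Otof, which encodes the calcium sensor otoferlin, was at 47.91, 42.22 and 55.59 CPM with vehicle and 21.82 and 10.34 CPM with UMBO. Cftr, the chloride channel gene, stood in the lists of both Coch and 2900052N01Rik, at 2.14, 2.196 and 2.138 CPM with vehicle and 1.193 and 0.8398 CPM with UMBO. Among the 5 genes themselves the closest pair was Coch and 2900052N01Rik (0.165) and the farthest Arr3 and 2900052N01Rik (0.435).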

How the data were processed

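The titles of the 5 deposited samples gave the group and replicate number. The study describes 6 mice, and a further UMBO library was not analysed here. The authors mapped the reads with STAR 2.7.2a to GRCm38 (mm10) and deposited unnormalized read counts per gene, 1 table per library. The annotation release and any strand setting are not given in the sources used here. Each p-value sets a group difference against the spread between these libraries only. Symbols were found in GENCODE M21 for 55480 of 55573 genes, and genes without one took at most 0.00173% of a library's counts.

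The counts were scaled by TMM and filtered with filterByExpr, and 23592 genes were tested, UMBO against vehicle, in edgeR 4.0.16 (limma 3.58.1, R 4.3.3) by its quasi-likelihood test and Benjamini-Hochberg adjustment at 0.05. The common dispersion was 0.1181. Log2 CPM used a prior count of 2, and CPM per kb divided CPM by the union of exons. Alternatives were DESeq2 1.42.0, other scalings and filters, a replicate block, each library left out, a prior count of 0.5 and another measure of likeness. Scripts were tested on simulated data. The members and the 24 lists (351 genes, 331 tested) were chosen with earlier results of these data known. Named genes were all 5 members, all polo-like kinase and WAVE complex genes, the 2 genes of each other list with the smallest unadjusted p, the 3 most similar genes, the nearest tested neighbours, the genes at the edge of the rule and the 5 with the widest gap at a mean CPM of at least 1. Sag, Arrb1, Vit, Crx, Guca1a, Pcp2, Gabra6 and Krt5 were added afterwards, when the families and markers were described. Igf2, Ranbp3l, Col6a2, Penk, Pdyn and Tac1 were also added, after their values were seen. Some genes that this rule names are not reported here. Similar genes were sought among genes with a mean CPM of at least 1 (all tested genes for Arr3).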

Additional observations from a re-analysis of the deposited data

How the results depend on the processing

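The 5 genes lay under every vehicle library under each scaling and filter tried, and with a library left out their choice fixes that order. Log2 fold changes over 11 alternatives ran from -1.999 to -1.31 for Plk5, -2.25 to -1.88 for Arr3, -1.33 to -1.01 for Coch, -1.59 to -1.23 for Abi3bp and -1.21 to -0.99 for 2900052N01Rik, the last with library size as the only scaling. The counts over all genes moved far more. Genes past an adjusted p of 0.05 numbered 0 in the main test, 40 with DESeq2, 2337 with the replicate number as a block and 0 to 4543 with 1 library left out, the highest without UMBO replicate 1. At an unadjusted p of 0.05, 1738 genes became 4100 with no filter, 2738 with DESeq2 and 6134 with the block, and 296 (without vehicle replicate 1) to 10165 (without UMBO replicate 1) with 1 library left out, including 432 without vehicle replicate 3, 455 without UMBO replicate 2 and 2674 without vehicle replicate 2. Genes under every vehicle library ran from 3186 to 10251 and genes over them from 3039 to 10544 on those omissions, where fewer libraries have to be in order. With library size as the only scaling all genes had a median log2 fold change of 0.125 against 0.012, and 2124 genes lay under and 3254 over. Higher and lower calls at an unadjusted p of 0.05 split 1251 to 487 in the main test, 1502 to 395 with library size only, 3396 to 2738 with the block, and, leaving out vehicle replicates 1, 2 and 3 and UMBO replicates 1 and 2 in turn, 194 to 102, 2164 to 510, 217 to 215, 5310 to 4855 and 281 to 174. The cause of these shifts was not tested.

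The replicate numbers were not treated as pairs. Deviations of same-numbered libraries correlated at r = 0.453 (number 1) and r = 0.76 (number 2) across genes. Those of vehicle library 3 and UMBO library 1, which differ in number, correlated at r = 0.521. Only 2 numbers are shared, the deviations of 2 UMBO libraries mirror each other, and nothing says what the number marks. The list medians that crossed 0 without 1 library included those of the photoreceptor (-0.38 to 0.21), astrocyte (-0.64 to 0.16), cerebellar (-0.46 to 0.09), olfactory bulb (-0.15 to 0.58), brain matrix (-0.27 to 0.14), ependymal (-0.07 to 0.25) and muscle and skin (-0.32 to 0.99) lists, and the pan-neuronal median ran from -0.65 to -0.14. Ranking likeness by summed absolute differences kept 3 of 3 similar genes for Plk5 and 2 of 3 for the other 4. The number of libraries, and for Arr3 its few reads, limits what these data resolve.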

Other observations

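Outside the 5 genes, the widest gaps between the lowest vehicle and the highest UMBO library, among genes with a mean of at least 1 CPM, belonged to Cort, Gm19410, Gm15721, Otof and Col24a1. Cort, which encodes the neuropeptide cortistatin of cortical interneurons, was at 1.458, 2.151 and 1.606 CPM with vehicle and 0.5499 and 0.6413 CPM with UMBO, a log2 fold change of -1.54 (SE 0.354). Gm19410 was at 37.04 ± 16.82 CPM (SD, n = 3) and 10.06 ± 2.444 CPM (SD, n = 2), with vehicle library 1 at 56.29 CPM, and the lincRNA Gm15721 was at 3.655 ± 1.202 CPM (SD, n = 3) and 1.048 ± 0.2723 CPM (SD, n = 2). Col24a1, a fibrillar collagen gene, was at 9.488 ± 2.385 CPM (SD, n = 3) and 2.907 ± 1.067 CPM (SD, n = 2), a log2 fold change of -1.70 (SE 0.379). These genes were picked for their gap, so no test is given.

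The cerebellar list had a median log2 fold change of -0.09 with 2 of 12 tested genes under the vehicle libraries and 0 over, led by Itpr1 (-1.32, unadjusted p = 0.0327) and Zic1 (-0.42, unadjusted p = 0.136), and its markers Pcp2 and Gabra6 had at most 10 reads in a library. The olfactory bulb list had a median of 0.34 with 2 of 11 under and 0 over, led by Omp (1.02, unadjusted p = 0.0962) and Cdhr1 (-0.46, unadjusted p = 0.123). Skeletal muscle and skin genes summed to 10.4 to 15.7 CPM in the 5 libraries with a median of -0.23, with 0 of 5 under and 1 over, led by Tnnt3 (2.21, unadjusted p = 0.0458) and Mylpf (0.66, unadjusted p = 0.122), and Krt5 had 14 reads in UMBO library 1 and 0 in the others. The cerebellar median was 0.08 without UMBO library 2 and -0.46 without UMBO library 1, and the olfactory bulb median -0.15 without UMBO library 2 and 0.58 without vehicle library 2. The muscle and skin median was 0.99 without UMBO library 1, -0.13 without UMBO library 2 and 0.03 without vehicle library 1. Without vehicle libraries 1, 2 and 3 the cerebellar median was -0.20, -0.05 and 0.09. The adjusted p of these 6 genes was 0.497 (edgeR).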
